A study of Mus musculus with 8 samples.

Results

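Among 39089 genes counted in Myc-CaP tumors, 65 had lower levels in the *Arid1a* KO than in the WT, both with vehicle and with JSH-23. They were chosen by CPM, the count of a gene divided by the total count of its sample and scaled by a fixed factor. The mean in WT tumors with vehicle had to reach 5 CPM, which 10266 genes did. The higher KO vehicle sample had to lie at or below the lower WT vehicle sample divided by 1.5, which left 274 genes. The higher KO JSH-23 sample had to lie at or below the lowest of all WT samples divided by the same factor, which left the 65 (0.633% of the 10266). Of these, 62 are protein-coding and 3 are long noncoding RNAs. The comparison of KO with WT therefore chose the genes, and its values are given as a description with no test. These genes had been proposed as unaffected by JSH-23, which the values below do not bear out for all of them, so they are called here the KO-lowered genes.

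Myc-CaP is a prostate cancer line from a *Myc* transgenic FVB mouse. The cells expressed a control vector (WT) or sgARID1A, a guide that targets *Arid1a* (KO), and the sources used here do not say whether the KO line was 1 clone. They were grown under the skin of male FVB mice that were 6 weeks old. From day 16 the hosts received either JSH-23, in DMSO diluted with corn oil, or vehicle, by gavage every day for 2 weeks. The labels name corn oil as the vehicle, whereas the study's text names DMSO for the control arm, and which the controls received was not settled here. Tumor cells were sorted as EpCAM+ and CD45- before total RNA was sequenced. All groups thus shared the *Myc* transgene, the host and the sort, and the 4 groups (WT vehicle, WT JSH-23, KO vehicle and KO JSH-23) held 2 samples each. Nothing in the labels says whether the 2 samples of a group came from separate tumors, so every p-value below measures only the spread between these samples, which may be technical.

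ARID1A is the DNA-binding subunit of the BAF form of the SWI/SNF complex, an ATP-driven machine that slides and evicts nucleosomes. It is most active at enhancers, and its loss tends to close some of them, so that genes under their control fall, while others rise. NF-κB is a family of transcription factors that enter the nucleus after inflammatory signals, and JSH-23 is a small molecule that keeps its p65 subunit out of the nucleus. A gene that stays low in KO cells under JSH-23 is a gene whose low level this compound did not restore.

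The total count ranged from 16401581 to 21972231 per sample, at which 3 counts correspond to 0.137 to 0.183 CPM. *Arid1a* itself had 158 and 163 CPM in WT vehicle, 145 and 156 in WT JSH-23, 106 and 109 in KO vehicle, and 89.7 and 91.0 in KO JSH-23. All KO samples were below all WT samples, but the transcript remained at most of its level, and *Arid1a* did not meet the limit of the rule. The RNA of the marker used in the sort was near 0, since *Epcam* stayed at or below 0.199 CPM in every sample and *Cdh1*, the epithelial cadherin, at or below 0.947 CPM. *Krt8*, a luminal keratin, had 60.4 and 51.7 CPM in WT vehicle, 33.4 and 32.9 in WT JSH-23, 116 and 115 in KO vehicle, and 93.4 and 97.7 in KO JSH-23. *Vim*, the mesenchymal filament vimentin, had 1160 and 1166, then 1796 and 1768, then 558 and 552, and 944 and 934 CPM, which is 2.10-fold and 1.90-fold lower in KO with vehicle and JSH-23. *Krt8* was thus higher and *Vim* lower in KO with either treatment, in the same comparison that chose the 65 genes, and the part of such a difference in their levels was not tested. The leukocyte gene *Ptprc*, which encodes CD45, stayed at or below 0.562 CPM. In these bulk samples, fewer cells of a kind and less RNA per cell cannot be told apart.

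Between WT and KO the 65 genes differed by 1.52-fold to 12.1-fold with vehicle, with a median of 2.09-fold, and by 1.58-fold to 15.2-fold with JSH-23, with a median of 2.13-fold. With vehicle 38 of them were at least 2-fold lower in KO and 8 at least 3-fold lower, and with JSH-23 these numbers were 41 and 10. In 60 of the 65, every KO sample was below every WT sample, which the rule nearly fixed and which held for 12.3% of the 10266 genes. In the other 5 (*Itpripl1*, *Gm8094*, *Notch3*, *Col16a1* and *Mir17hg*) a KO vehicle sample was above a WT JSH-23 sample. The lowest count of any of the 65 in any sample was 10, and the median coefficient of variation between the 2 samples of a group was 3.69%, against 2.74% over the 10266 genes.

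**Figure D1:**
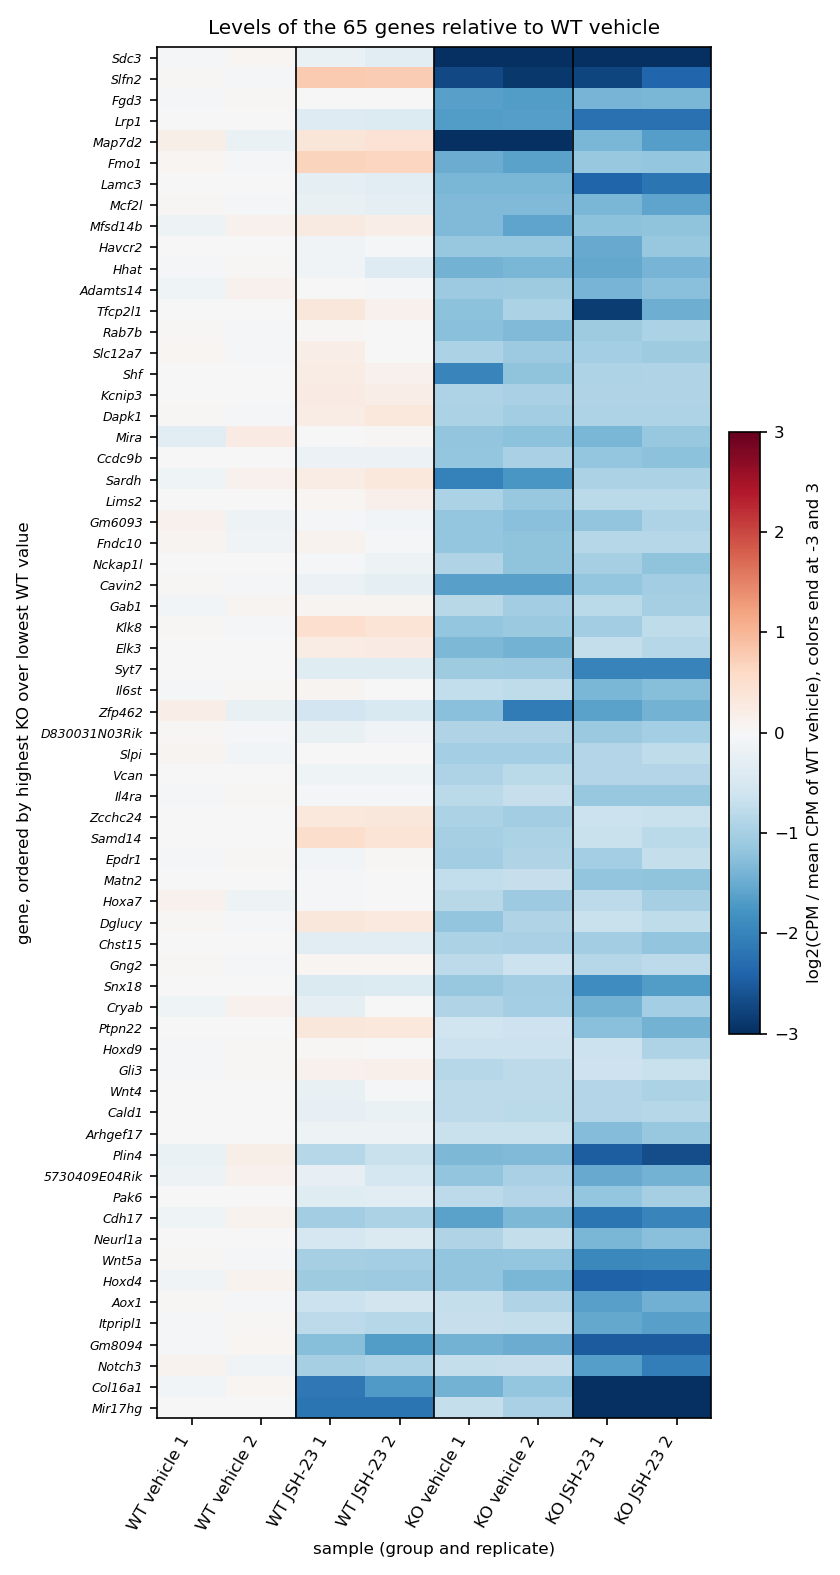
Level of each of the 65 KO-lowered genes (vertical axis, ordered by the highest KO over the lowest WT value) in each of the 8 samples (horizontal axis), as log2 of CPM over the mean CPM of WT vehicle. Blue is lower and red is higher, and the colors end at -3 and 3. All genes are blue in the 4 KO samples, and *Mir17hg* and *Col16a1* at the bottom are also blue in the WT JSH-23 samples.

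The limit itself was crossed by small steps. Just inside it were *Notch3*, *Hoxd9* and *Gli3*, where the narrower of the 2 gaps that the rule compares was 1.51-fold in each. Just outside were *Zfhx2*, *Eml1* and *Lrrc10b*, at 1.49-fold. To read the folds in samples that had no part in the choice, the rule was applied to the samples of 1 replicate number and read in those of the other. Of 124 genes chosen in samples 1, 121 were lower in KO with vehicle and with JSH-23 in samples 2, and 78 (62.9%) met all limits there. Of 111 chosen in samples 2, 110 were lower in both in samples 1, and 78 (70.3%) met all limits. Over the 10266 genes, both KO samples were below both WT samples with vehicle and with JSH-23 in 25.9%. The 2 samples of a group may be technical repeats. If so, this agreement was nearly fixed in advance, and it does not speak for other tumors.

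The KO-lowered gene with the lowest KO level relative to WT was *Sdc3* (chromosome 4, 130792537 to 130826318, plus strand of GRCm38). It encodes syndecan 3, a membrane proteoglycan that carries heparan sulfate chains. *Sdc3* had 30.6 and 33.5 CPM in WT vehicle, 27.9 and 25.2 in WT JSH-23, 2.79 and 2.49 in KO vehicle, and 1.498 and 2.00 in KO JSH-23. The KO samples lay far below the WT samples with either treatment, 12.1-fold with vehicle and 15.2-fold with JSH-23. The 250 bases before its RefSeq start (GRCm38.p6, chr4:130792287-130792536, plus strand) are shown because it had the largest fold of all 65. Capitals mark GGGCGG on either strand, the core recognized by SP1, which 62.1% of the windows of the 10266 genes also held.
Sdc3: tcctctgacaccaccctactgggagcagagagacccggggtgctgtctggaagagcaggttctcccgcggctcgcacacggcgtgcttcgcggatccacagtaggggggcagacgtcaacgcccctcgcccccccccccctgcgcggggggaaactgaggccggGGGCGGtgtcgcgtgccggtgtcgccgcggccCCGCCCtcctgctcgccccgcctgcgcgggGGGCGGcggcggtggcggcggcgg

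*Slfn2*, a Schlafen family gene known from the quiescence of T cells, was next. It had 11.4 and 10.9 CPM in WT vehicle, 19.3 and 18.96 in WT JSH-23, 1.71 and 1.495 in KO vehicle, and 1.65 and 2.14 in KO JSH-23. The KO samples stayed at 1 low level, while the WT samples were higher with JSH-23, so the fold was 6.94 with vehicle and 10.1 with JSH-23. *Slfn2* belongs to a family of similar genes, among which reads can be shared. *Map7d2*, which encodes a microtubule-binding protein, had 9.01 and 6.96 CPM in WT vehicle, 10.3 and 10.9 in WT JSH-23, 0.626 and 0.797 in KO vehicle, and 3.1 and 2.55 in KO JSH-23. It was 11.2-fold lower in KO with vehicle and 3.74-fold lower with JSH-23, so part of the gap was gone in the treated tumors.

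Among the other genes of the 20 with the lowest ratio of highest KO to lowest WT value, *Lrp1* had by far the highest level. *Lrp1*, an endocytic receptor of many ligands, had 396 and 385 CPM in WT vehicle, 299 and 294 in WT JSH-23, 121 and 125 in KO vehicle, and 82.8 and 82.3 in KO JSH-23. The 4 groups did not overlap, and the fold was 3.18 with vehicle and 3.59 with JSH-23. *Fgd3*, an exchange factor for the small GTPase CDC42, was 3.14-fold and 2.61-fold lower in KO. *Fmo1*, a flavin-containing monooxygenase, was 2.93-fold and 3.51-fold lower, and *Mcf2l*, an exchange factor for small GTPases, 2.49-fold and 2.36-fold. *Slc12a7*, a potassium-chloride cotransporter, was lower by 2.03-fold and 2.24-fold, and *Dapk1*, a death-associated protein kinase, by 1.99-fold and 2.30-fold. *Hhat*, the enzyme that palmitoylates Hedgehog ligands, was 2.65-fold and 2.35-fold lower, *Adamts14*, a protease that trims procollagens, 2.11-fold and 2.46-fold, and *Rab7b*, a small GTPase of endosomes, 2.43-fold and 2.01-fold. The rest of these 20 (*Mfsd14b*, *Tfcp2l1*, *Shf*, *Ccdc9b*, *Lamc3*, *Havcr2*, *Kcnip3* and the noncoding *Mira*) lay between 1.92-fold and 4.71-fold.

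*Havcr2* and *Kcnip3* carried, within the 250 bases before their RefSeq start, the letters TGANTCA that AP-1 factors recognize (both strands searched), as did 3.99% of the windows of the 10266 genes. *Havcr2* encodes the immune checkpoint receptor TIM-3 and *Kcnip3* a calcium-binding protein that can also act as a transcriptional repressor. They are shown because they are among those 20 genes, with the match in capitals (GRCm38.p6, chr11:46454681-46454930, plus strand, and chr2:127522095-127522344, minus strand). Other motifs searched on both strands included the TATA box (TATAAA), the E-box (CACGTG), the TEAD site (GGAATG) and, by name, those of NF-κB and CREB. A match is only a description of letters, and binding was not measured. Promoter windows were matched by symbol to 51 of the 65 genes (78.5%), which was too few for a comparison of motif shares or base composition, so none is given.
Havcr2: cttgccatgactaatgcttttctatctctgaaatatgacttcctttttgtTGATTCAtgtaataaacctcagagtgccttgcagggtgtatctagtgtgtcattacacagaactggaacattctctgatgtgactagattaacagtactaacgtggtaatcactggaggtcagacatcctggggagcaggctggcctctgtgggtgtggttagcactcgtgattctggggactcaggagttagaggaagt
Kcnip3: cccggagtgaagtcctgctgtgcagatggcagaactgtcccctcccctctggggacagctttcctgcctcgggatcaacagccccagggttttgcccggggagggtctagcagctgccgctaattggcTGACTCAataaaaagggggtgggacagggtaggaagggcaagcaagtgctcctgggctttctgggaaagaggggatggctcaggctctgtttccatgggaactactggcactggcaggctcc

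Proteoglycans and matrix proteins were among the gene lists with the largest share of KO-lowered genes. Many lists were scanned, and they were written with earlier results of these data known. Their shares, here and below, are thus a description with no test. Of 24 proteoglycans and heparan sulfate enzymes at 5 CPM or more, 3 were members (*Sdc3*, *Vcan* and *Chst15*), and of 33 genes of extracellular matrix and basement membrane 3 were (*Lamc3*, *Matn2* and *Col16a1*), which is 12.5% and 9.09%, against 0.633% of all genes at that level. *Vcan*, the chondroitin sulfate proteoglycan versican, had 245 and 246 CPM in WT vehicle, 224 and 225 in WT JSH-23, 129 and 141 in KO vehicle, and 134 and 133 in KO JSH-23. *Chst15*, which adds a further sulfate to chondroitin sulfate, had 73.9 and 72.7, then 58.4 and 59.1, then 38.1 and 37.3, and 35.8 and 32.2 CPM in the same order. In both genes all KO samples were below all WT samples, and the 2 KO groups of *Vcan* overlapped. *Vcan* lies on chromosome 13, whose genes were lower in KO as a whole. It no longer met the rule once that shift was divided out.

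*Lamc3*, the laminin chain gamma 3 of basement membranes, had 78.8 and 77.1 CPM in WT vehicle, 64.0 and 62.6 in WT JSH-23, 30.1 and 30.0 in KO vehicle, and 14.8 and 17.1 in KO JSH-23. *Matn2*, a matrilin that links matrix filaments, had 73.2 and 74.9, then 71.2 and 74.9, then 44.7 and 45.9, and 32.4 and 31.9 CPM. Both were lower still in KO with JSH-23, while the 2 WT groups of *Matn2* overlapped. Among the genes of the lists that were not KO-lowered, both KO samples were below both WT samples with vehicle in 11 of 21 proteoglycan genes and in 18 of 30 matrix genes, against 38.7% of the 10266, and with JSH-23 in 15 and 20, against 50.7%. Over each whole list the median log2 difference of KO from WT was -0.07 and -0.22 with vehicle, against 0.01 over the 10266 genes, and -0.26 and -0.36 with JSH-23, against -0.08.

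Ligands and transcription factors of development formed a further group. Wnt ligands are secreted signals that act through Frizzled and ROR receptors, and 2 of 30 Wnt pathway genes (6.67%) were KO-lowered, against 0.633% of the 10266. *Wnt4*, which at 110 TPM (a level per transcript length) had the highest level of all 65 in WT vehicle, had 169 and 167 CPM in WT vehicle, 143 and 161 in WT JSH-23, 97.2 and 96.9 in KO vehicle, and 90.9 and 87.1 in KO JSH-23. *Wnt5a*, the main ligand of the β-catenin-independent branch, had 96.8 and 92.7 CPM in WT vehicle, 47.2 and 46.4 in WT JSH-23, 41.5 and 42.2 in KO vehicle, and 24.9 and 25.1 in KO JSH-23. For *Wnt4* the genotypes were apart and the treatments close, whereas *Wnt5a* was stepped down by both, with WT JSH-23 only slightly above KO vehicle. Among the other Wnt genes directions were mixed with vehicle. Both KO samples were below both WT samples in 15 of 28 and above them in 9. Over the 10266 genes they were below in 3970 (38.7%) and above in 4149. With JSH-23 the KO samples were below in 17 of the 28 and above in 2, against 5207 (50.7%) and 2917 of the 10266.

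Of 19 genes of the Notch and Hedgehog pathways, *Notch3* and *Gli3* were members (10.53%, against 0.633% of the 10266). *Gli3* lies on chromosome 13, whose genes were lower in KO as a whole, and it no longer met the rule once that shift was divided out. *Notch3*, a Notch receptor, had 26.7 and 23.3 CPM in WT vehicle, 12.5 and 13.1 in WT JSH-23, 15.3 and 15.4 in KO vehicle, and 8.01 and 5.92 in KO JSH-23. The receptor was thus highest in untreated WT, lowest in treated KO, and in KO vehicle above WT JSH-23. *Gli3*, the zinc finger factor that mostly represses Hedgehog targets, had 81.9 and 86.4 CPM in WT vehicle, 92.3 and 93.6 in WT JSH-23, 46.9 and 48.7 in KO vehicle, and 54.4 and 52.98 in KO JSH-23. Its genotypes were apart in both treatments, and it was slightly higher with JSH-23 in both. *Neurl1a*, a ubiquitin ligase of the Neuralized family, was lower in KO by 1.74-fold with vehicle and 1.80-fold with JSH-23. *Hhat* above belongs to the Hedgehog ligands' own processing. Neither gene is on this list, and *Neurl1a* was named after its values were seen. Of the 17 other genes of the list, both KO samples were below both WT samples in 11 with vehicle and in 14 with JSH-23. Over the 10266 genes these shares were 38.7% and 50.7%.

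Hox genes are the homeobox factors that set position along the body axis. They had the largest share of the lists, with 3 of 12 (25.0%), against 0.633% of the 10266 genes. The noncoding *Mira*, which lies beside *Hoxa7*, is not on that list. *Hoxa7* had 14.7 and 12.02 CPM in WT vehicle, 13.1 and 13.2 in WT JSH-23, 7.46 and 6.23 in KO vehicle, and 7.75 and 6.69 in KO JSH-23. *Hoxd9* had 11.4 and 12.02, then 11.9 and 11.7, then 7.52 and 7.52, and 7.49 and 6.14 CPM. *Hoxd4* had 6.49 and 7.50, then 3.32 and 3.29, then 3.08 and 2.69, and 1.29 and 1.32 CPM. *Hoxa7* and *Hoxd9* stayed at 1 level within each genotype, while *Hoxd4* was lower with JSH-23 in both.

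*Mira* (chromosome 6, 52214491 to 52215288) lies on the same strand as *Hoxa7*, with 334 bases between them and no other gene at 5 CPM between. It had 6.61 and 9.76 CPM in WT vehicle, 8.26 and 8.35 in WT JSH-23, 3.59 and 3.49 in KO vehicle, and 3.15 and 3.73 in KO JSH-23. *Hoxd9* and *Hoxd4* lie 21769 bases apart on chromosome 2 with 1 gene at 5 CPM between them, and *Pak6* and *Ccdc9b* lie 56124 bases apart on the same chromosome. These were the only pairs of the 65 within 100000 bases of each other. Not all Hox genes were lower: among the 9 that were not KO-lowered, both KO samples were below both WT samples with vehicle in 7 and above in 2, and with JSH-23 below in 4 and above in 2. The share below over the 10266 genes was 38.7% with vehicle and 50.7% with JSH-23.

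**Figure D2:**
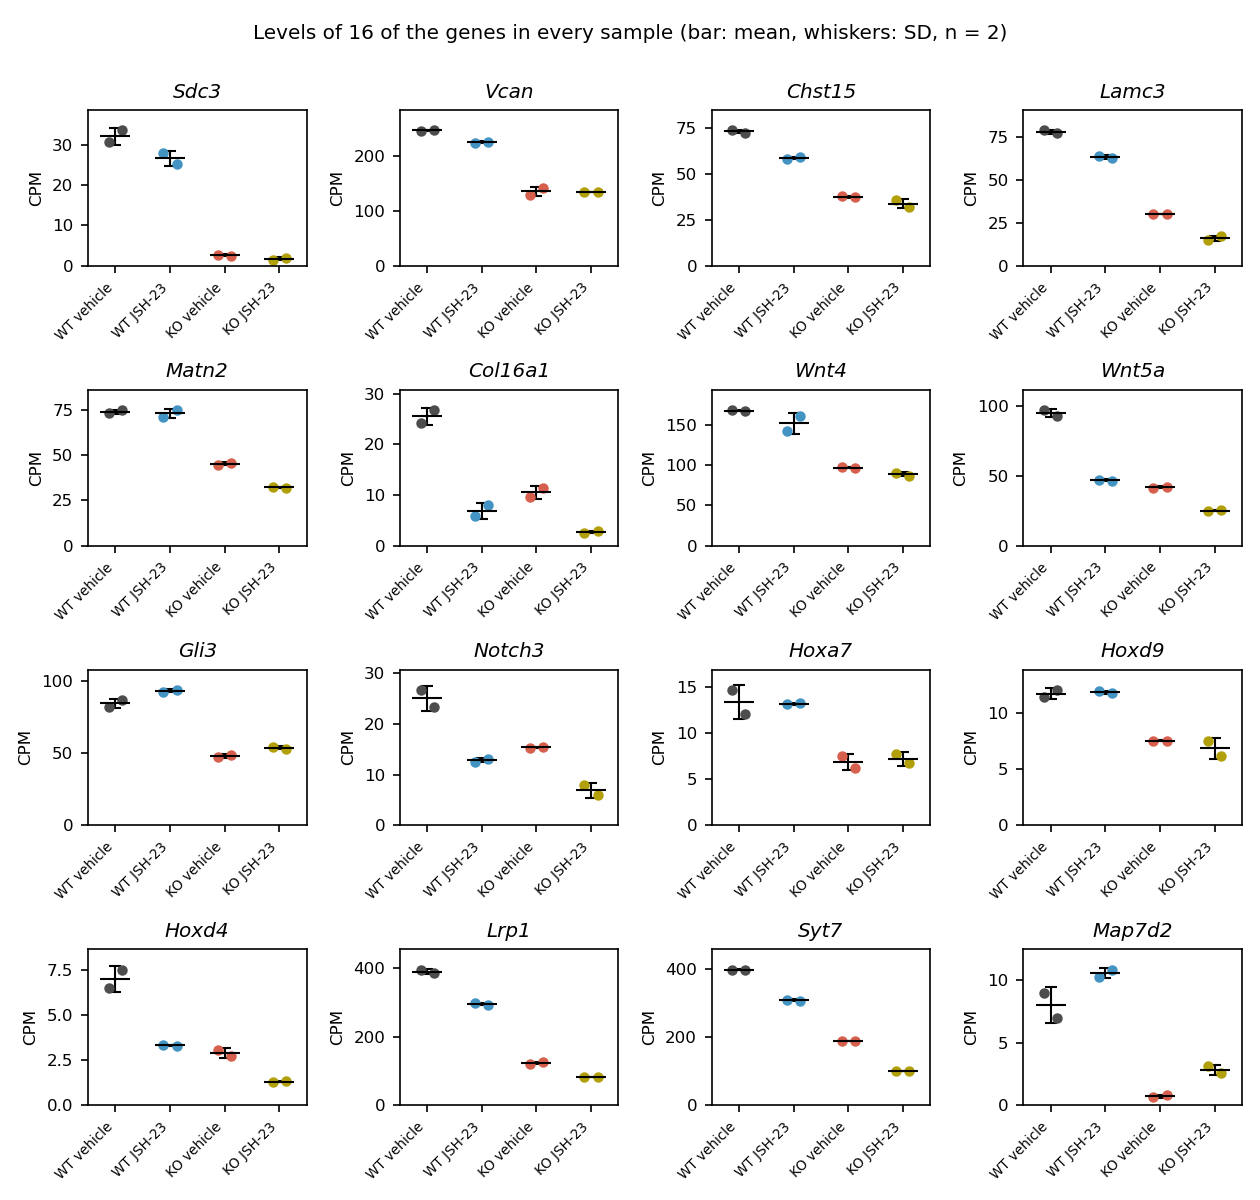
Levels in CPM (vertical axes, starting at 0) of 16 of the KO-lowered genes in the 4 groups (horizontal axes), with each sample as a point, the mean as a bar and the SD as whiskers (n = 2). *Sdc3*, *Vcan*, *Gli3*, *Hoxa7* and *Hoxd9* differ mainly between genotypes, whereas *Wnt5a*, *Notch3*, *Hoxd4* and *Col16a1* are also lower with JSH-23 in WT and in KO, and *Map7d2* is higher with JSH-23 in KO.

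Several KO-lowered genes are best known from blood cells or from the response to cytokines. *Il6st*, which encodes gp130, the shared signaling chain of the interleukin 6 receptors, was lower in KO by 1.67-fold with vehicle and 2.55-fold with JSH-23. *Il6st* lies on chromosome 13, whose genes were lower in KO as a whole, and no longer met the rule once that shift was divided out. *Il4ra*, the interleukin 4 receptor chain, was lower by 1.69-fold and 2.15-fold, *Nckap1l*, the hematopoietic subunit of the WAVE complex, by 2.08-fold and 1.99-fold, and *Havcr2* by 2.19-fold and 2.39-fold. *Slpi*, a secreted protease inhibitor of epithelia, had 24.7 and 22.2 CPM in WT vehicle, 23.7 and 23.4 in WT JSH-23, 11.5 and 11.6 in KO vehicle, and 12.8 and 13.9 in KO JSH-23. The treatments overlapped in WT, and all KO samples were far below them, with the treated ones slightly higher.

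The 20 leukocyte markers summed to 21.4 to 23.1 CPM in WT vehicle, 10.7 to 21.5 in WT JSH-23, 20.8 to 23.3 in KO vehicle and 9.65 to 12.7 in KO JSH-23, with 10 of them at 3 counts or fewer in every sample and *Ptprc* near 0. The ranges of this sum overlapped between KO and WT with vehicle and with JSH-23. With JSH-23 both the lowest and the highest sum were lower in KO. Its part in the levels of the blood cell genes was not tested. The 12 fibroblast markers summed to between 41.9 and 77.1 CPM, lowest in KO JSH-23, and the 10 endothelial markers to between 1.82 and 4.84 CPM. The 16 epithelial markers summed to 803 to 809 CPM in WT vehicle, 705 to 706 in WT JSH-23, 1075 to 1085 in KO vehicle and 957 to 967 in KO JSH-23. The 10 markers of muscle and nerve summed to between 30.9 and 45.6 CPM. None of the 5 marker lists held a KO-lowered gene, and only 0.633% of the 10266 genes were members. The floor of 5 CPM in WT vehicle kept out all 10 endothelial markers and at least 10 of the leukocyte markers. Their absence was thus fixed in advance and says nothing about cell types.

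The remaining genes had varied roles. *Syt7*, a calcium sensor of vesicle and lysosome fusion, had 397 and 399 CPM in WT vehicle, 310 and 307 in WT JSH-23, 189 and 188 in KO vehicle, and 99.9 and 99.0 in KO JSH-23. *Cald1*, the actin-binding caldesmon, had 191 and 194, then 163 and 168, then 111 and 110, and 104 and 106 CPM. The 4 groups were apart in both genes, and the step with JSH-23 was larger in *Syt7*. *Gng2*, a G-protein gamma subunit, was 1.64-fold and 1.83-fold lower in KO, *Zcchc24*, a zinc finger protein, 2.00-fold and 1.98-fold, and *Cavin2*, a coat protein of caveolae, 3.08-fold and 1.82-fold. *Elk3*, an ETS factor, was 2.62-fold and 2.03-fold lower, *Sardh*, the mitochondrial sarcosine dehydrogenase, 3.66-fold and 2.33-fold, and *Plin4*, a coat protein of lipid droplets, 2.52-fold and 3.49-fold.

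The other KO-lowered genes were *Gab1*, *Klk8*, *Zfp462*, *Samd14*, *Epdr1*, *Dglucy*, *Snx18*, *Cryab*, *Arhgef17*, *Pak6*, *Cdh17*, *Aox1*, *Ptpn22*, *Itpripl1*, *Lims2*, *Fndc10*, *D830031N03Rik*, *5730409E04Rik*, *Gm6093*, *Gm8094* and *Mir17hg*. *Gm6093* and *Gm8094* are predicted genes and *Klk8* belongs to the kallikrein cluster, and reads can be shared among similar genes. These 21 were lower in KO by 1.52-fold to 3.07-fold with vehicle and by 1.65-fold to 3.20-fold with JSH-23. No KO-lowered gene was among 26 SWI/SNF subunits, 45 genes of the NF-κB pathway and its targets, 19 luminal and androgen-regulated genes, 43 interferon and antigen presentation genes or 10 transcription factors of the epithelial-mesenchymal transition at 5 CPM or more. At a share of 0.633%, fewer than 1 gene of any such list would be a member.

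JSH-23 was then compared with vehicle within each genotype, with edgeR's quasi-likelihood test over all 8 samples and Benjamini-Hochberg adjustment over 13921 genes, all 65 included. A gene was called at an adjusted p under 0.05 and a change of at least 1.5-fold. The rule caps the KO levels in both treatments and sets a floor under the WT levels, so it limits how far a member can rise in KO or fall in WT, and the counts are not free of it. In KO, 5 of the 65 were higher with JSH-23 and 13 lower (27.7% called), against 26.0% of all genes tested, with 9.10% higher and 16.9% lower. In WT, 2 were higher and 10 lower (18.5%), against 15.8% of all genes, with 5.55% higher and 10.2% lower. The KO-lowered genes were thus called about as often as other genes in either genotype.

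The median log2 change of the 65 with JSH-23 was -0.01 in KO and -0.05 in WT, against -0.02 and -0.01 for all genes tested. Without TMM scaling the median of all genes moved to -0.13 in KO and to -0.11 for the interaction, and in KO 4 of the 65 were called higher and 15 lower. Both genotypes called 9 of the genes, all lower in both, KO alone called 9 and WT alone 3, and 44 were called in neither. Of all genes tested, 10.4% were called in both, 7.56% as lower in both, 15.6% in KO alone, 5.37% in WT alone and 68.6% in neither. At any fold, 38 of the 65 (58.5%) had an adjusted p under 0.05 in KO and 39 in WT, against 67.8% and 55.8% of all genes tested. A missing call does not show that a gene was unaffected. In 30 of the 65 (46.2%) the 95% interval of the change lay within 1.5-fold in both directions in both genotypes, which also held for 45.7% of all genes tested. These 30 included *Wnt4*, *Vcan*, *Chst15*, *Gli3*, *Hoxa7*, *Hoxd9*, *Mira*, *Dapk1*, *Lrp1* and *Slpi*. In KO the interval of *Wnt4* stayed closest to 0 among these 30, with a log2 change of -0.01 (95% interval -0.10 to 0.07) in KO and -0.13 (-0.21 to -0.06) in WT.

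**Figure D3:**
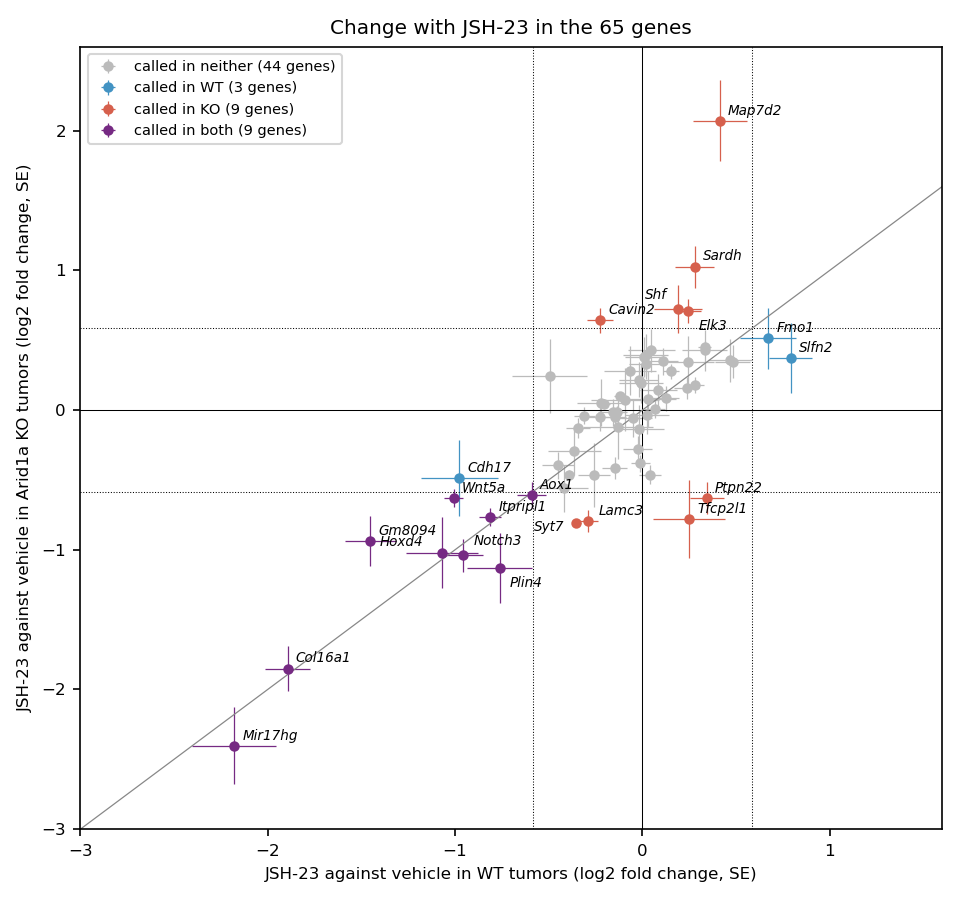
Change with JSH-23 against vehicle in WT tumors (horizontal axis) and in *Arid1a* KO tumors (vertical axis), as log2 fold change from edgeR, for the 65 KO-lowered genes, with standard errors as bars. Dotted lines mark 1.5-fold and the gray line equal change. The 9 genes called in both lie at the lower left, led by *Mir17hg* and *Col16a1*, and *Map7d2* lies highest.

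The largest fall with JSH-23 in both genotypes was that of *Mir17hg*. *Mir17hg*, the host RNA of the miR-17-92 cluster and a known target of MYC, had 7.39 and 7.62 CPM in WT vehicle, 1.63 and 1.65 in WT JSH-23, 4.56 and 3.84 in KO vehicle, and 0.517 and 0.910 in KO JSH-23. It was lower with JSH-23 by a log2 change of -2.18 (SE 0.22, edgeR adjusted p = 2.34e-13) in WT and -2.40 (SE 0.28, edgeR adjusted p = 6.95e-12) in KO. Both KO vehicle samples were above both WT JSH-23 samples, and treated KO was lowest. The counted span (chromosome 14, 115044390 to 115046728) holds, in the RefSeq table, only the last microRNA of the cluster, whose mature arms are shown with the seed, bases 2 to 8, in capitals (RefSeq, GRCm38.p6, chr14:115044437-115044459 and chr14:115044476-115044496, plus strand). The seeds of the arms differ, and mature microRNAs were not measured.
mmu-miR-92a-1-5p: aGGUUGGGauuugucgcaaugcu
mmu-miR-92a-3p: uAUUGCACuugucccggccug

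*Col16a1*, a collagen that binds to the surface of fibrils, had 24.3 and 26.8 CPM in WT vehicle, 5.79 and 7.93 in WT JSH-23, 9.62 and 11.5 in KO vehicle, and 2.58 and 2.82 in KO JSH-23. Its log2 change with JSH-23 was -1.89 (SE 0.12) in WT and -1.85 (SE 0.16) in KO, with edgeR adjusted p of 1.30e-22 and 9.99e-17. *Gm8094* had 15.2 and 16.4, then 6.46 and 4.94, then 5.92 and 5.63, and 2.79 and 2.78 CPM. In both genes the untreated WT samples stood above all others, and WT JSH-23 lay below KO vehicle in *Col16a1* and overlapped it in *Gm8094*. *Hoxd4* fell by 1.07 on the log2 scale in WT and by 1.02 in KO, *Notch3* by 0.96 and 1.04, *Wnt5a* by 1.01 and 0.63, *Itpripl1* by 0.81 and 0.77, and *Plin4* by 0.76 and 1.13. The last of the 9 was *Aox1*, an aldehyde oxidase, which fell by 0.59 and 0.61 and is named here after its values were seen.

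Among the 10 genes lower with JSH-23 in WT only *Cdh17*, the liver-intestine cadherin, was not called in KO. It had 5.59 and 6.61 CPM in WT vehicle, 2.98 and 3.17 in WT JSH-23, 1.99 and 2.39 in KO vehicle, and 1.34 and 1.55 in KO JSH-23, and its interaction had an edgeR adjusted p of 0.275. All 4 groups were apart in *Cdh17*, and a difference of its change between genotypes was not detected. *Slfn2* and *Fmo1* were the genes higher with JSH-23 in WT, by log2 changes of 0.79 (SE 0.11) and 0.67 (SE 0.15). *Fmo1* had 6.67 and 6.13 CPM in WT vehicle, 10.2 and 10.1 in WT JSH-23, 2.28 and 2.09 in KO vehicle, and 2.89 and 2.87 in KO JSH-23. Its KO samples were also higher with JSH-23, without passing 1.5-fold.

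In KO, *Map7d2*, *Sardh*, *Shf*, *Elk3* and *Cavin2* were higher with JSH-23, so that their low level was in part lifted. *Sardh* had 13.9 and 16.7 CPM in WT vehicle, 17.7 and 19.1 in WT JSH-23, 3.76 and 4.58 in KO vehicle, and 7.85 and 7.96 in KO JSH-23. *Elk3* had 37.2 and 36.8, then 42.9 and 44.3, then 14.5 and 13.9, and 22.5 and 20.4 CPM. In both, the treated KO samples were above the untreated ones and below all WT samples. In edgeR's test against the 1.5-fold limit *Shf*, *Elk3* and *Cavin2* were not called. Without TMM scaling the rise of *Cavin2* was 0.53 and also not called. *Shf*, an SH2 domain adaptor, had 10.7 and 10.8, then 12.5 and 11.8, then 2.73 and 4.63, and 5.63 and 5.78 CPM. Its rise of 0.72 on the log2 scale (SE 0.17, edgeR adjusted p = 0.000177) rested on the first KO vehicle sample, without which it was 0.42 and not called.

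The change with JSH-23 differed between the genotypes in 5 of the 65 genes by the interaction test of the same fit (7.69%), 3 higher and 2 lower in KO, against 9.07% of all genes tested, with 3.30% higher and 5.76% lower. At any fold 16 (24.6%) had an adjusted p under 0.05, against 38.4%. *Map7d2* rose more in KO, by a difference of 1.66 (SE 0.33, edgeR adjusted p = 3.04e-05), and so did *Cavin2* (0.87, SE 0.11, edgeR adjusted p = 2.00e-09) and *Sardh* (0.75, SE 0.18, edgeR adjusted p = 0.000681). *Ptpn22*, a tyrosine phosphatase known from lymphocytes, had 18.7 and 18.7 CPM in WT vehicle, 23.8 and 23.5 in WT JSH-23, 12.4 and 12.3 in KO vehicle, and 7.80 and 6.96 in KO JSH-23. It was higher with JSH-23 in WT and lower in KO, a difference of -0.97 (SE 0.15, edgeR adjusted p = 9.88e-08). *Cavin2* moved the other way round, with 43.8 and 42.1, then 37.9 and 34.9, then 13.95 and 13.9, and 19.2 and 20.9 CPM. The groups did not overlap within either genotype in *Ptpn22* or *Cavin2*. In edgeR's test against the 1.5-fold limit, of these 5 genes only *Map7d2* kept its interaction call.

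*Tfcp2l1*, a transcription factor of pluripotent and ductal cells, had 5.22 and 5.12 CPM in WT vehicle, 6.52 and 5.67 in WT JSH-23, 2.22 and 2.69 in KO vehicle, and 0.723 and 1.87 in KO JSH-23. Its interaction of -1.03 (SE 0.34, edgeR adjusted p = 0.0122) rested on the lower KO JSH-23 sample, and without that sample it was -0.52 and not called. Without the second KO vehicle sample it was -0.88 and also not called. For the pathway lists, the JSH-23 calls in KO were 2 higher and 4 lower of 24 proteoglycan genes, 1 and 12 of 33 matrix genes, 0 and 1 of 12 Hox genes, 2 and 2 of 30 Wnt genes and 2 and 4 of 19 Notch and Hedgehog genes. In WT they were 3 and 1, 0 and 8, 0 and 4, 2 and 3, and 1 and 3. Of all genes tested 16.9% were called lower in KO and 10.2% in WT. The 12 matrix genes lower in KO included *Col16a1* and *Lamc3*.

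The KO-lowered genes were unevenly spread over the chromosomes. Chromosome 13 held 10 of the 65 (15.4%) but 3.64% of the 10266 genes. These 10 were *Fgd3*, *Mfsd14b*, *Slc12a7*, *Dapk1*, *Gm6093*, *Il6st*, *Vcan*, *Epdr1*, *Snx18* and *Gli3*. The other genes of that chromosome were also lower in KO, with a median log2 difference of -0.25 with vehicle and -0.36 with JSH-23, where the medians of the other chromosomes lay between -0.06 and 0.11 and between -0.12 and 0.04. The shift ran along its whole length, since all 12 windows of 10 Mb had a negative median, from -0.34 to -0.11 with vehicle and from -0.47 to -0.25 with JSH-23.

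With the KO values of chromosome 13 divided by that chromosome's median ratio, a step chosen after the data were seen, 59 of the 65 genes still met the rule. On chromosome 13 the genes that did were *Fgd3*, *Mfsd14b*, *Slc12a7* and *Snx18*, 4 of the 10. *Dapk1*, *Gm6093*, *Il6st*, *Vcan*, *Epdr1* and *Gli3* no longer reached the limit, and their log2 difference beyond that of the chromosome lay between -0.96 and -0.49 with vehicle and between -0.99 and -0.38 with JSH-23. DNA copy number was not measured, and what part the shift of the chromosome has in these genes was not tested.

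**Figure D4:**
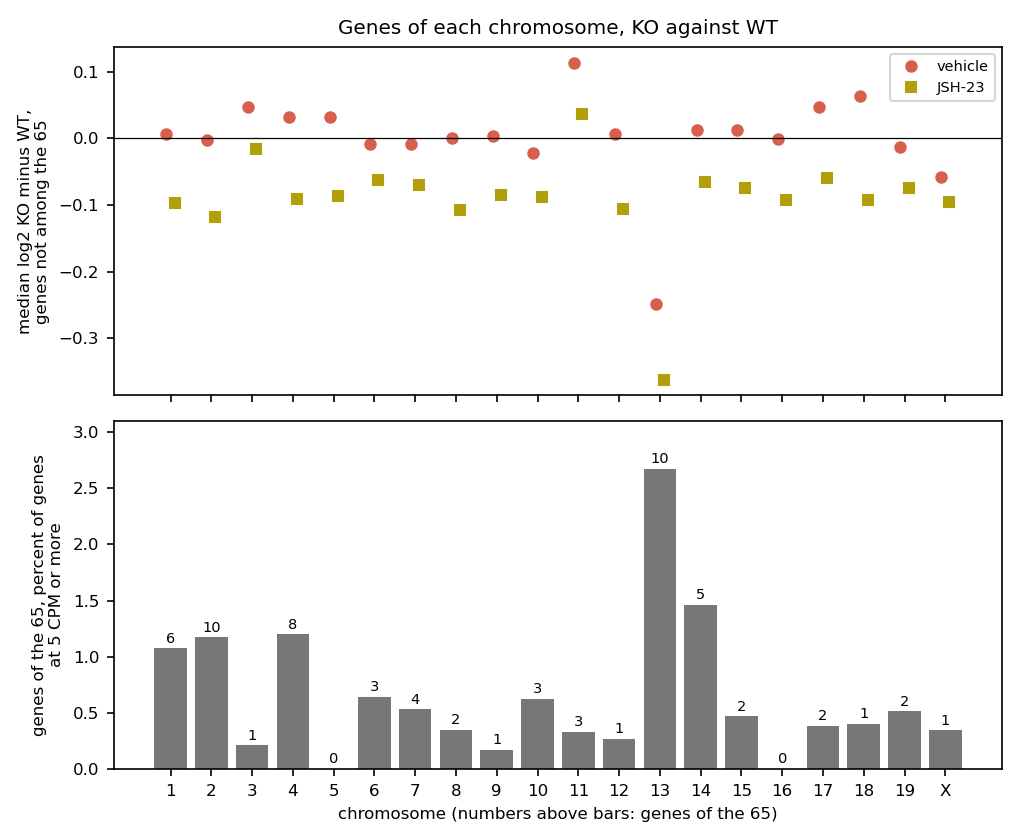
Top, median log2 difference of KO from WT (vertical axis) of the genes at 5 CPM or more that are not among the 65, for each chromosome (horizontal axis), with vehicle (circles) and JSH-23 (squares). Bottom, KO-lowered genes as percent of the genes at 5 CPM or more on each chromosome, with their number above the bar. Chromosome 13 lies lowest at -0.25 and -0.36 and holds 10 of the 65 genes.

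The 65 were set beside the 209 genes that met the vehicle conditions but not the one on JSH-23. Of the 209, 21 were above the limit set by WT vehicle only, 49 above that set by WT JSH-23 only and 139 above both. The KO-lowered genes had a median level of 14.2 TPM in WT vehicle, against 30.6 in the 209 and 28.5 in the 10266 genes. Their median transcript length was 4716 bases, against 3240 and 3723 bases. Chromosome 13 held 11.5% of the 209. These are descriptions of chosen sets, and no test was made.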

How the data were processed

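Total RNA of the sorted tumor cells was sequenced in 8 samples. Per the study's methods the authors aligned reads to GRCm38/mm10 with TopHat2 and counted them per gene and strand with HTSeq, whereas the processing notes in the labels name HISAT2, HTSeq and DESeq2. The deposited count values are whole numbers without normalization, and the deposited TPM values are those counts divided by gene length and scaled. TPM keeps no depth.

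CPM, the KO-lowered genes, list counts and chromosome medians were computed in Python 3.11.15. JSH-23 was tested with edgeR 4.0.16 in R 4.3.3 (filterByExpr, TMM, a mean per group over 8 samples, glmQLFTest, checked on simulated counts). Total counts ranged from 16401581 to 21972231, and the common biological coefficient of variation was 1.61%. Intervals cover the spread between samples and counting error only. Named genes were the 20 with the smallest ratio of highest KO to lowest WT, the 10 highest TPM and those called for JSH-23 (6 largest each way). Members of the Hox, proteoglycan, Notch and Hedgehog, matrix and Wnt lists and genes near the limit were also named. A list of complement, coagulation and secreted defence genes (1 of 14, 7.14%) had a larger share than the Wnt list but was not covered. Others were named after their values were seen. The genes and the lists were chosen with earlier results of these data known. Alternatives were other scalings, filters, limits, DESeq2 1.42.0, limma 3.58.1 on log2(TPM + 1) and log2(TPM + 0.1), a replicate block and each sample left out. The table of TPM values for the whole series repeats the values per sample and was not used.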

Additional observations from a re-analysis of the deposited data

Results flagged for a closer look

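The change with JSH-23 differed between KO and WT tumors, by the interaction of the edgeR fit, in *Map7d2* (log2 difference, KO minus WT, 1.66), *Cavin2* (0.87), *Sardh* (0.75), *Ptpn22* (-0.97) and *Tfcp2l1* (-1.03). *Map7d2* rested on KO vehicle levels of 0.626 and 0.797 CPM. *Tfcp2l1* lost its call without the first KO JSH-23 sample (-0.52) or the second KO vehicle sample (-0.88). No group held enough samples to look for a sample far from the others.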

How the results depend on the processing

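The rule found 16 genes at a 2-fold limit, 297 at a limit lowered towards 1, 111 with group means and 124 or 111 in the samples numbered 1 or 2 alone. Leaving out 1 sample gave 70 to 83 genes, each time with the 65 among them. TMM scaling gave 57 genes (53 shared), and the deposited TPM values gave 94 (55 shared).

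For JSH-23 in KO, an adjusted p with no fold limit called 18 of the 65 higher and 20 lower. edgeR's test against the 1.5-fold limit called 2 and 8, a biological coefficient of variation of 0.2 also 2 and 8, limma on log2(TPM + 1) 2 and 14, and limma on log2(TPM + 0.1) 2 and 21. For JSH-23 in WT, no fold limit gave 13 higher and 26 lower, the coefficient of 0.2 gave 0 and 6, the test against the limit 0 and 7, and limma on log2(TPM + 1) 1 and 9, where edgeR at an unadjusted p under 0.05 with 1.5-fold gave 2 and 10. For the interaction, no fold limit gave 9 higher and 7 lower, the test against the limit 1 and 0, the coefficient of 0.2 gave 0 and 0, limma on log2(TPM + 1) 1 and 4, and limma on log2(TPM + 0.1) 2 and 5, against 4 and 2 at an unadjusted p under 0.05 with 1.5-fold. The lower count was 4 without scaling, 1 with a coefficient of 0.1 and 1 with DESeq2.

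With 1 sample left out, where the lone sample of a group is assumed to vary like the others, JSH-23 called 4 to 6 higher and 11 to 14 lower in KO, 2 to 3 and 9 to 10 in WT, and 3 to 4 and 1 to 3 for the interaction, where the lower count was 1 without the first KO JSH-23 sample or without the second KO vehicle sample. Of the called JSH-23 changes of named genes, 11 in KO, 8 in WT and 5 interactions were recomputed under the alternatives, and among these 504 values 0 reversed and 42 lost their call, the cause of which was not tested. The samples of 1 number share only that number, since their deviations from the group means had correlations from -0.02 to 0.02 between groups, and with the replicate block the counts were 5 and 13 in KO, 2 and 10 in WT, and 3 and 2 for the interaction. Groups of 2 samples limit the precision of every value, and members below 10 CPM rest on few counts.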
